A study of Rattus norvegicus with 71 samples.

Results

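Interferon signalling and antigen presentation were examined through 34 genes, chosen by symbol: 4 interferon receptor chains, 3 Janus kinases, 2 STAT factors, 5 interferon regulatory factors, 2 sensors of viral RNA, 9 interferon-induced effectors, 5 genes of MHC class I peptide processing, 2 genes of MHC class II and 2 feedback inhibitors. Of these, 33 had a row among the 17494 genes of the count table, and Ifnar2 was not analysed here. RNA came from 1 coronal brain slice, with hippocampal formation and the cortex and subcortical tissue beside it, from each of 71 wild type Sprague-Dawley rats of both sexes on postnatal day 2 (PND2). Their 27 dams, with 1 litter each, had been injected before mating with Freund's adjuvant, together with either saline (control) or peptides of the proteins that the antibodies of maternal autoantibody-related autism (MARA) recognise, so the controls were also born to adjuvant-treated dams. The 24 controls came from 7 litters. The 47 MARA-AB exposed animals comprised 25 from 9 LDHA/B+CRMP1+STIP1 litters, 8 from 4 CRMP1+CRMP2 litters, 6 from 3 CRMP1+GDA litters and 8 from 4 STIP1+NSE litters. Samples were processed and sequenced in 2 batches, and batch 1 comprised 16 LDHA/B+CRMP1+STIP1 animals and 12 controls, while the other 12 controls, the other 9 LDHA/B+CRMP1+STIP1 animals and the 3 other patterns were all in batch 2. Total counts ran from 24880182 to 36234952 per animal, and a level of 1 CPM, a count scaled to the total of its library, stood for 24.9 to 36.2 counts.

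Interferons are secreted by cells that sense infection and act on neighbouring cells. Type I interferons bind the receptor formed by Ifnar1 and Ifnar2, and interferon gamma binds Ifngr1 and Ifngr2. Both receptors use Janus kinases to phosphorylate STAT factors, which enter the nucleus, alone or with Irf9, and induce antiviral effectors and the machinery that loads peptides onto MHC class I molecules. In the healthy newborn brain these induced genes are generally kept low, while MHC class I also has known roles in synapse development.

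The receptor chains measured, Jak1 and Jak2 had higher medians than every member that interferon induces, while the kinase Tyk2 lay among the induced genes. Per length (RPKM, the CPM divided by the kilobases of exon), Jak1 was the highest member with a median of 45.0 over 71 animals, above 82.0% of the genes tested, and Ifnar1 followed at 35.1. Irf3, the regulatory factor that RNA sensing activates, was at 25.8 RPKM, the 2 interferon gamma receptor chains Ifngr1 and Ifngr2 at 23.04 and 21.7, and Jak2, their kinase, at 22.5. The ranges of these last 4 genes overlapped widely, since Irf3 alone ran from 13.8 to 44.2 RPKM, so that their order is within the spread of the animals. Stat3 had a median of 11.8 RPKM, and Irf9 and Stat2, the DNA-binding and transactivating partners of the type I complex, stood side by side at 7.03 and 7.02. Tyk2, the second kinase of the type I receptor, was at 4.09 RPKM.

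The induced genes spread over a wide range of low levels. Tapbp, the tapasin that holds MHC class I molecules at the peptide transporter, was at 6.45 RPKM, Mx2 at 4.61, Bst2 (tetherin) at 3.13 and Isg15, a ubiquitin-like protein, at 2.53. The peptide transporter subunits Tap1 and Tap2 were at 1.54 and 1.22 RPKM, and the immunoproteasome subunits Psmb9 and Psmb8 at 1.64 and 0.776. Socs1 and Socs3, which block Janus kinase signalling, had medians of 2.51 and 1.88 RPKM, and Irf1, a mediator of the interferon gamma response, of 1.21. Irf2, its antagonist, was higher at 4.94 RPKM. The sensors Ddx58 (RIG-I) and Ifih1 (MDA5) were at 0.686 and 0.521 RPKM, Ifit2 at 0.55, Rsad2 (viperin) at 0.442 and Irf7, the amplifier of type I interferon, at 0.437. Cd74, the invariant chain of MHC class II, was at 0.593 RPKM.

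The lowest members were at or near the limit of the sequencing. Ifit3 and Ciita, the master regulator of MHC class II, reached 1 CPM in 0 of 71 animals, and 12 and 22 animals respectively had 0 counts. Oasl reached 1 CPM in 4 animals, Usp18, which restrains type I signalling, in 6 and Mx1 in 10. Differences in these 5 genes were therefore not detectable unless large. Mx1 and Mx2, and Ifit2 and Ifit3, are related neighbours, and how the authors' counting treated reads that map to several places is not stated.

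**Figure D1:**
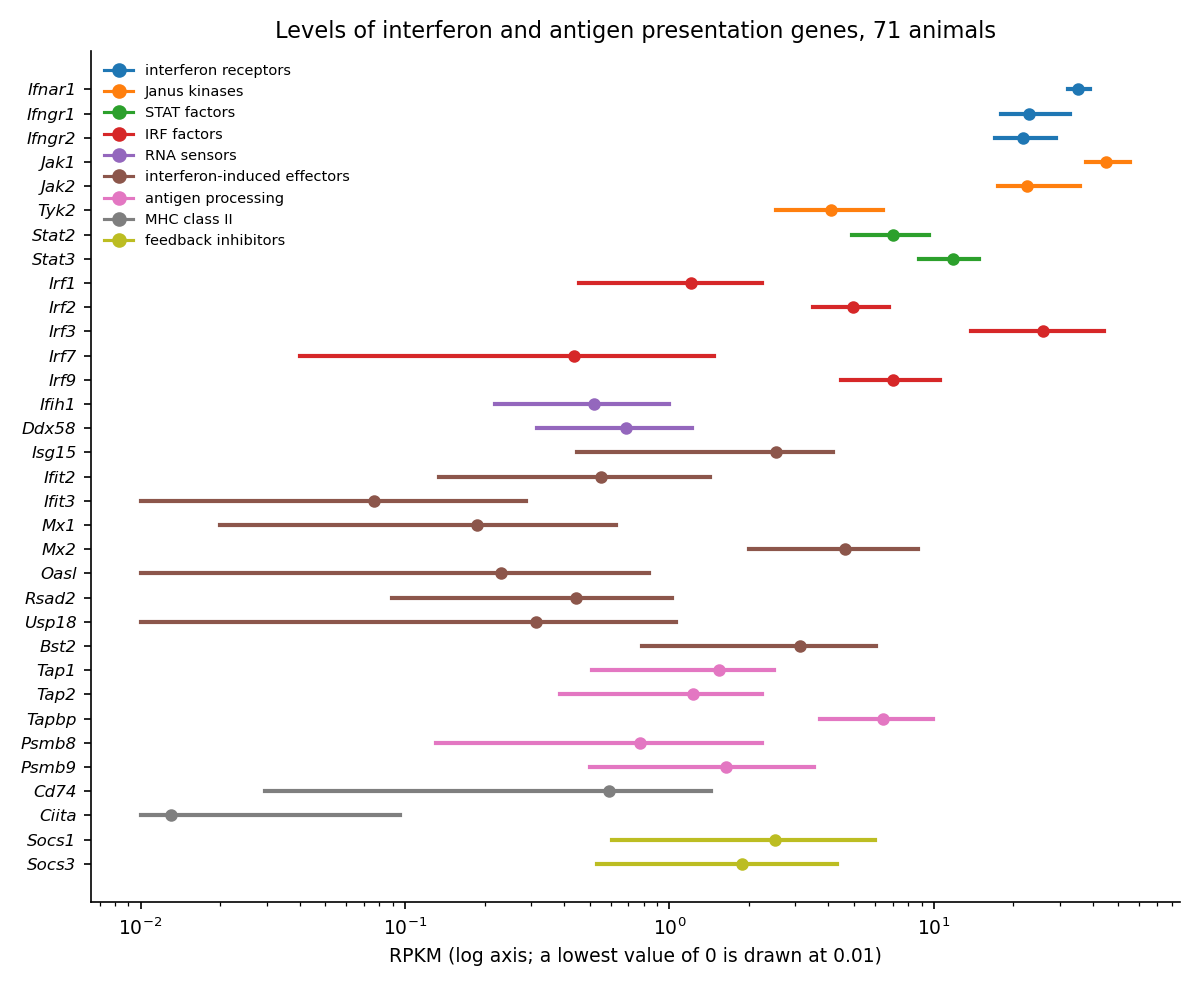
Median RPKM (dot) and the lowest to highest of 71 animals (line) for the 33 members on a log axis, coloured by role; a lowest value of 0 is drawn at the left end. Receptors, Jak1 and Jak2 lie to the right, from 21.7 to 45.0, and Ciita and Ifit3 lie furthest left.

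A few of the members are neighbours in the genome, while most lie apart on many chromosomes. In the rn7 coordinates of the count table, Tap2, Psmb8, Tap1 and Psmb9 lie within 36166 bases of chromosome 20, from 4636347 to 4672512, in the MHC, and Tapbp ends at 4965993 on the same chromosome. Tap1 and Psmb9 are read in opposite directions with 456 bases between them. Ifnar1 and Ifngr2 are 30283 bases apart on chromosome 11, and Ifit2 and Ifit3 are 5527 bases apart on chromosome 1.

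Whether MARA-AB exposure in general moved this program was tested first, with 47 exposed animals against 24 controls. The program as a whole was not called: 0 of 29 members tested passed FDR < 0.1, where 0.016% of all genes did. At an unadjusted p under 0.05, 1 member passed against 10.2% of all genes, and DESeq2 also called 0 members. The median log2 fold change was 0.03 over the members and 0.00 over all genes, and 19 of 29 estimates were positive. Ifnar1 had the narrowest 95% interval, from -0.05 to 0.02 on the log2 scale, and Irf7 the widest, from -0.34 to 0.46.

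Isg15, secreted and conjugated to proteins after interferon exposure, had the smallest p. Its CPM was 1.46 ± 0.45 (SD, n = 24) in controls, from 0.296 to 2.16, and 1.71 ± 0.38 (SD, n = 47) in MARA animals, from 0.905 to 2.75, so that the groups overlapped. The log2 fold change was 0.26 (SE 0.10), with an adjusted p of 0.394 in edgeR. Control means were 1.66 ± 0.34 CPM in the 12 animals of batch 1 and 1.26 ± 0.47 in the 12 of batch 2 (edgeR adjusted p = 0.122). Batch 1 LDHA/B+CRMP1+STIP1 animals stood at 1.71 ± 0.44 CPM, close to their own controls. Within batch 2 the fold change was 0.43 (SE 0.15) and the adjusted p was 0.724 in edgeR. One batch 2 litter, 9_5, held the lowest control at 0.296 CPM, from 9 counts. The next 2 members by p were Mx2, a dynamin-like antiviral GTPase, with a log2 fold change of -0.15 (SE 0.08, edgeR adjusted p = 0.512), and Tapbp, at 0.12 (SE 0.07, edgeR adjusted p = 0.532).

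Of 111 other genes of the pathway on a fixed list, 96 were in the table and 80 were tested, and 0 passed FDR < 0.1 in edgeR and in DESeq2. At an unadjusted p under 0.05, 8 were higher and 2 lower, 10 of 80 where 10.2% of all genes passed.

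CRMP1+CRMP2 exposure was the contrast in which a member was called. Stat2, which acts with Irf9 downstream of the type I interferon receptor, measured 24.1 and 26.1 CPM in the male and female of litter 9_1, 28.6 and 28.97 in the males of litter 9_6, 26.3 and 28.4 in litter 9_11, and 27.6 and 33.1 in litter 9_16. The 24 controls had a lowest value of 19.1, a median of 23.2 and a highest of 29.04 CPM. All 8 exposed animals lay above the control median, and 7 of the 8 lay within the range of the controls. The log2 fold change was 0.20 (SE 0.07) and the adjusted p was 0.0898 in edgeR. It was 1 of 31 members tested (3.23%), where 13.2% of all genes were called, 5.63% higher and 7.53% lower. In DESeq2 the adjusted p was 0.0796, and with PC1 and PC2 as covariates edgeR called 5 members, Stat2, Irf9 and Jak2 higher and Irf2 and Mx2 lower, where 18.9% of all genes were called. Within batch 2 alone the fold change was 0.24 (SE 0.07) with an adjusted p of 0.117 in edgeR, and with counts summed per litter it was 0.26 (SE 0.11) with 0.435. The edgeR adjusted p was 0.427 without litter 9_6, 0.167 without 9_11, 0.176 without 9_16, and 0.147, 0.135, 0.157 and 0.162 without the control litters 9_5, 9_15, 9_25 and IgG2, where the log2 fold change lay between 0.17 and 0.21. Without litter 9_1 it was 0.27 (edgeR adjusted p = 0.0484) and without control litter 9_10 0.25 (edgeR adjusted p = 0.0183).

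In the other batch 2 patterns the mean of Stat2 was 20.97 ± 2.55 CPM (SD, n = 6) after CRMP1+GDA, 24.1 ± 2.27 (n = 8) after STIP1+NSE and 23.2 ± 4.41 (n = 9) after LDHA/B+CRMP1+STIP1, against 27.9 ± 2.65 (n = 8) after CRMP1+CRMP2. A test of any difference among the 4 patterns within batch 2 called 0 of 31 members in edgeR (0% of all genes), and Stat2 was the 1 member with an unadjusted p under 0.05 (p = 0.00155, adjusted p = 0.642), against 7.03% of all genes.

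The next members by p after CRMP1+CRMP2 were Irf9 and Irf7. Irf9, which gives the complex its DNA contact, ran from 11.1 to 16.9 CPM in the exposed animals and from 7.16 to 15.7 in controls, with a log2 fold change of 0.29 (SE 0.12, edgeR adjusted p = 0.139). Irf7 ran from 0.340 to 2.89 CPM against 0.218 to 2.12 in the controls (log2 fold change 0.62, SE 0.30, edgeR adjusted p = 0.189). For both genes the groups overlapped over most of their range. The interferon receptors gave no estimate above 0, and the antigen processing genes had 0 calls of 5.

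Other genes of the pathway did pass after CRMP1+CRMP2. Of 83 tested, 8 were higher and 0 lower at FDR < 0.1 in edgeR (9.64%, against 13.2% of all genes), but 2 were higher and 4 lower with PC1 and PC2 as covariates. RT1-A2, a classical MHC class I gene, rose by 0.63 on the log2 scale (SE 0.15, adjusted p = 0.0169), from 2.42 ± 0.82 CPM in controls to 4.02 ± 0.81 in exposed animals, and its reads may be shared with similar RT1 genes. Parp14, a mono-ADP-ribosyltransferase induced by interferon, rose by 0.50 (SE 0.13, adjusted p = 0.0262), from 4.41 ± 1.03 to 6.53 ± 1.60 CPM. Lgals3bp, a secreted galectin-binding protein, rose by 0.68 (SE 0.18, adjusted p = 0.0279), from 6.90 ± 2.70 to 11.5 ± 4.32 CPM, and Parp9, partner of Dtx3l in antiviral signalling, by 0.48 (SE 0.14, adjusted p = 0.0354). Without litter 9_1 the log2 fold change of Lgals3bp was 0.27 (edgeR adjusted p = 0.290), and with PC1 and PC2 it was 0.22 (edgeR adjusted p = 0.412). None of the 82 tested without litter 9_6 was called, and none of those tested was called within batch 2, with counts summed per litter or with litter as a random effect. Without litter 9_6 the log2 fold changes of RT1-A2, Parp14, Lgals3bp and Parp9 were 0.65, 0.40, 0.64 and 0.42, and with the random effect 0.61, 0.46, 0.56 and 0.45. Within batch 2 alone they were 0.44, 0.47, 0.43 and 0.41. All exposed animals were in batch 2, while the control means above pool both batches. RT1-A2 and Lgals3bp were higher in batch 2 controls than in batch 1 controls, by 0.58 and 0.63 on the log2 scale. Parp14 and Parp9 were not called between the control batches. Between the batches of LDHA/B+CRMP1+STIP1 animals, however, Parp9 was higher in batch 2 by 0.79 (edgeR adjusted p = 0.000192). RT1-A2 and Lgals3bp were also higher there, by 0.98 and 1.02, while Parp14 was not called.

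Markers of other tissues also differed in this contrast. All 6 choroid plexus markers passed at FDR < 0.1 (median log2 fold change 2.35). The controls pool both batches, while all CRMP1+CRMP2 animals were in batch 2. Choroid plexus sums were 194 to 3278 CPM (median 1132) after CRMP1+CRMP2 and 133 to 2861 (median 704) in batch 2 controls. In batch 1 controls they were 2.52 to 107 (median 10.9). All 5 pineal markers also passed (median 3.63), and their summed level ran from 3.17 to 249 CPM in CRMP1+CRMP2 animals and from 1.90 to 6.58 in controls. The pineal sums were far above the rest in 1 animal of litter 9_1 (249 CPM) and 1 of litter 9_11 (70.8), and the group's median was 5.70. Of 4 border macrophage markers 2 passed, Mrc1 at 1.02 and Lyve1 at 1.04, with summed levels of 5.90 to 36.5 CPM against 1.25 to 19.3 in controls. Of 12 microglia markers 0 passed, 1 had an unadjusted p under 0.05, and all 12 estimates were positive. The highest border macrophage sum was in litter 9_6 and the highest pineal sum in litter 9_1. One erythroid marker (Hbb, 0.81) and 1 lymphocyte marker (Cd4, 0.75) also passed, and 4 of the 7 lymphocyte markers in the table had a median of 0, while the oligodendrocyte lineage marker Olig1 fell by 0.26 on the log2 scale (edgeR adjusted p = 0.0359). Pineal markers passed in other contrasts too, with Tph1 higher over all MARA animals (4.13) and 3 of 5 higher after STIP1+NSE. The part of these tissues in the pathway calls was not tested, and in bulk tissue a change in the number of cells of a type cannot be told apart from a change in RNA per cell.

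**Figure D2:**
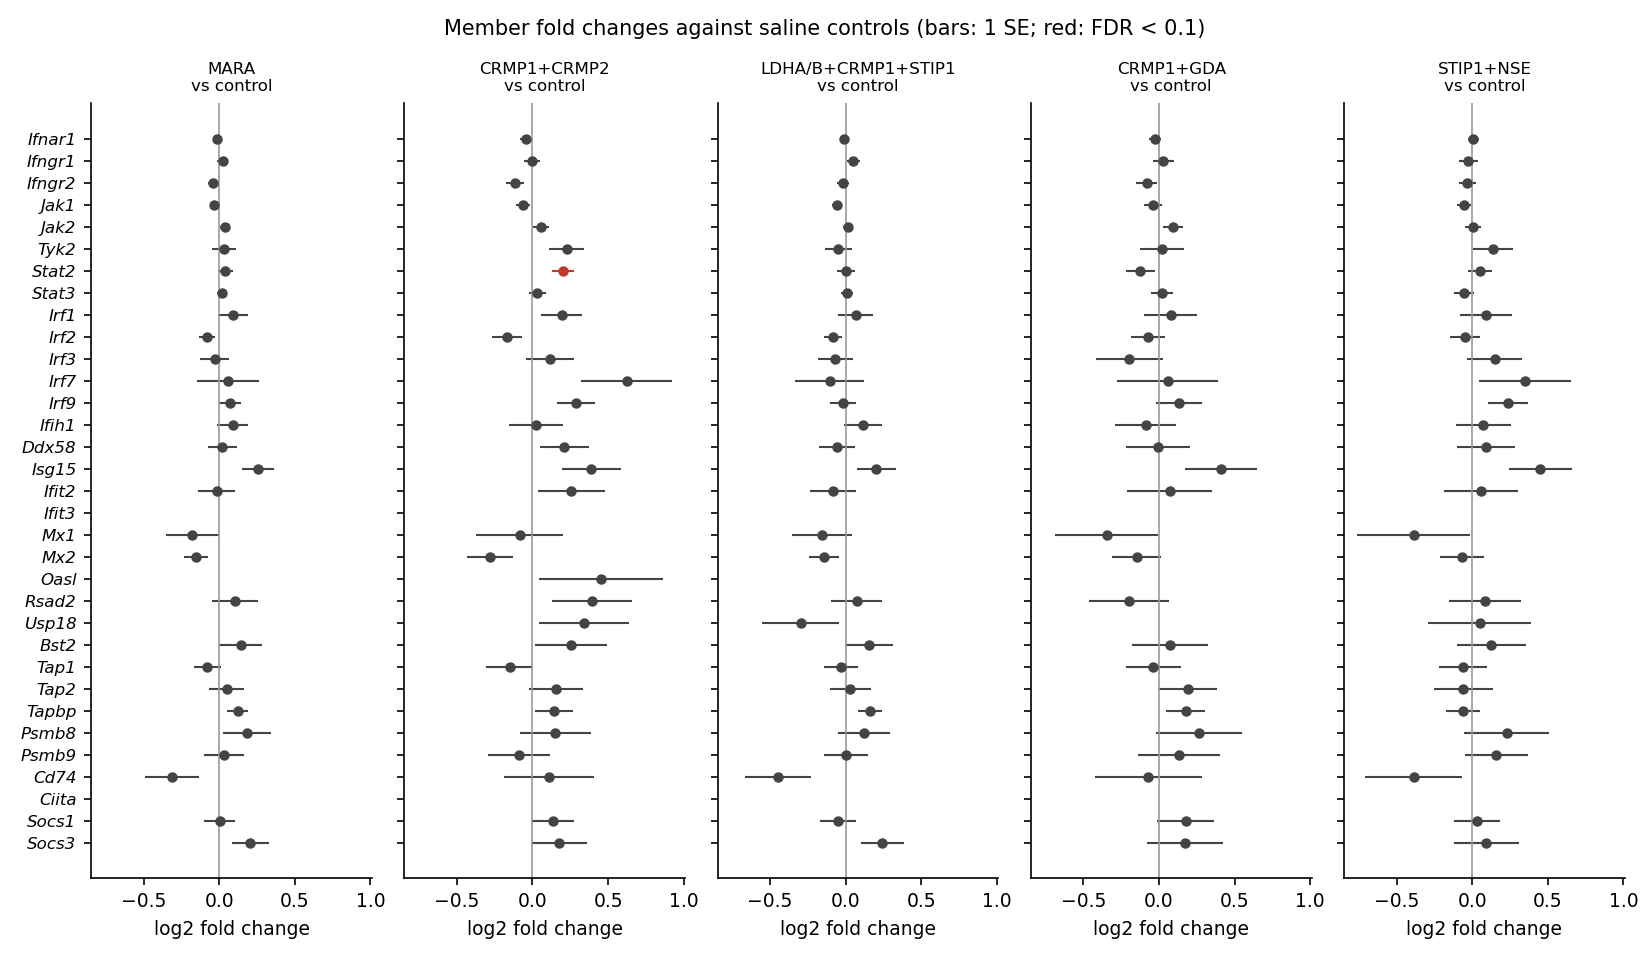
Log2 fold change against the 24 controls (dot) ± 1 SE (line) for each tested member, in one panel for all MARA animals and one for each autoantibody pattern; red marks FDR < 0.1. Stat2 after CRMP1+CRMP2, at 0.20, is the one red point.

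In the 3 other patterns no member passed. LDHA/B+CRMP1+STIP1 animals (n = 25) gave 0 of 30 members, against 0.0236% of all genes, and 2 had an unadjusted p under 0.05, against 6.92%. Tapbp was 0.16 higher on the log2 scale (SE 0.08, edgeR adjusted p = 0.718), Cd74 was at -0.45 (SE 0.22, edgeR adjusted p = 0.719) and Jak1 at -0.06 (SE 0.03, edgeR adjusted p = 0.759). CRMP1+GDA animals (n = 6) gave 0 of 29, against 0.00791% of all genes, with 0 at an unadjusted p under 0.05, against 3.45%. The smallest p there was that of Isg15, with a log2 fold change of 0.41 (SE 0.24), followed by Jak2 at 0.09 (SE 0.07) and Tapbp at 0.18 (SE 0.13), each with an edgeR adjusted p of 1.00. STIP1+NSE animals (n = 8) gave 0 of 30, against 0.0553% of all genes, with 1 at an unadjusted p under 0.05 (3.4% of all genes), again Isg15, at 0.45 (SE 0.21, edgeR adjusted p = 0.996). Irf9 followed at 0.24 (SE 0.13) and Cd74 at -0.39 (SE 0.32). DESeq2 called 0 members in each of these 3 contrasts. The 4 patterns share their controls, so their estimates for one gene are not independent of each other.

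The LDHA/B+CRMP1+STIP1 contrast could be set up within each batch. Batch 1 (16 exposed, 12 controls) gave 0 of 29 members (0.0161% of all genes) and 0 at an unadjusted p under 0.05 (5.45%), led by Mx2 at -0.23 (SE 0.12), Cd74 at -0.62 (SE 0.35) and Irf7 at -0.58 (SE 0.33). Batch 2 (9 exposed, 12 controls) also gave 0 of 29 (0% of all genes) and 1 at an unadjusted p under 0.05 (5.62%), led by Jak1 at -0.09 (SE 0.04), Isg15 at 0.45 (SE 0.22) and Ifngr1 at 0.13 (SE 0.08). A direct test of the difference between the batches called 0 of 30 members (0.11% of all genes) and 0 at an unadjusted p under 0.05 (3.05%). Irf7 had the smallest p of that test (log2 difference 0.85, SE 0.44, unadjusted edgeR p = 0.0612). Its level was 0.558 ± 0.320 CPM in exposed animals of batch 1 and 0.819 ± 0.515 in their controls, and 1.19 ± 0.491 and 0.973 ± 0.344 in batch 2. DESeq2 called 0 members in all of these tests.

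Sex gave no member either. Between 35 males and 36 females 0 of 29 members passed in edgeR and in DESeq2 (0.0641% of all genes), and Mx2 was the 1 member with an unadjusted p under 0.05, against 4.66% of all genes (log2 fold change 0.18 in males over females, SE 0.08, adjusted p = 0.991).

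Most calls in this program lay between the batches. In unexposed controls, 12 animals of batch 2 against 12 of batch 1, 12 of 26 members passed FDR < 0.1 (46.2%), close to the 41.6% of all genes. Of these, 9 were higher in batch 2 and 3 lower, where all genes split into 21.4% higher and 20.2% lower. The higher group held the feedback inhibitors Socs1 and Socs3, the effectors Rsad2, Bst2 and Ifit2, the peptide loading genes Tap1, Tap2 and Tapbp, and the receptor chain Ifngr2. The lower group held Jak1, Jak2 and Ifngr1. RLE scaling and DESeq2 gave the same split of 9 and 3.

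Socs1, an interferon-induced brake on Jak1 and Jak2, showed the clearest gap. Its CPM was 1.39 at the lowest, 2.18 at the median and 2.77 at the highest among controls of batch 1, and 2.60, 4.00 and 5.24 in batch 2. The ranges met only at their ends, and the log2 fold change was 0.83 (SE 0.13, edgeR adjusted p = 2.63e-05). Rsad2 ran from 0.358 through 0.814 to 2.56 CPM in batch 1 and from 1.24 through 1.90 to 2.78 in batch 2, with a log2 fold change of 0.85 (SE 0.25, edgeR adjusted p = 0.00946). The highest batch 1 control lay inside the batch 2 range.

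Peptide loading genes were higher together. Tapbp ran from 5.81 through 7.503 to 10.04 CPM in batch 1 and from 6.602 through 11.01 to 15.4 in batch 2 (log2 fold change 0.50, SE 0.11, edgeR adjusted p = 0.00111). Tap1 went from 3.37 ± 1.11 CPM (SD, n = 12) to 4.75 ± 1.09, a log2 fold change of 0.48 (SE 0.17, edgeR adjusted p = 0.0292). Tap2 went from 2.34 ± 0.947 to 3.37 ± 0.803, a log2 fold change of 0.50 (SE 0.19, edgeR adjusted p = 0.0496). The ranges of all 3 genes overlapped between batches. Psmb9, beside Tap1, had a log2 fold change of 0.41 and did not pass (edgeR adjusted p = 0.130).

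Bst2 (log2 fold change 0.58, SE 0.24, edgeR adjusted p = 0.057), Ifit2 (0.54, SE 0.24, adjusted p = 0.0885) and Socs3 (0.62, SE 0.22, adjusted p = 0.0271) were higher in batch 2 with overlapping ranges. Ifngr2 was higher by a small step, from 53.4 ± 4.80 to 61.9 ± 4.38 CPM (0.19, SE 0.05, edgeR adjusted p = 0.00516). Its partner Ifngr1 was lower, from 44.7 ± 3.78 to 40.1 ± 4.19 CPM (-0.18, SE 0.05, edgeR adjusted p = 0.012). The 2 chains of the interferon gamma receptor thus moved in opposite directions.

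Jak2 ran from 82.1 through 95.4 to 134 CPM in controls of batch 1 and from 65.5 through 77.5 to 84.1 in batch 2. The ranges overlapped only between 82.1 and 84.1, and the log2 fold change was -0.34 (SE 0.06, edgeR adjusted p = 8.85e-05). Jak1 went from 211 ± 16.4 to 191 ± 10.5 CPM (-0.16, SE 0.04, edgeR adjusted p = 0.00482). The third kinase, Tyk2, had a log2 fold change of -0.13 and did not pass (edgeR adjusted p = 0.409), and Stat2, Stat3 and the 4 IRF factors tested did not pass.

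**Figure D3:**
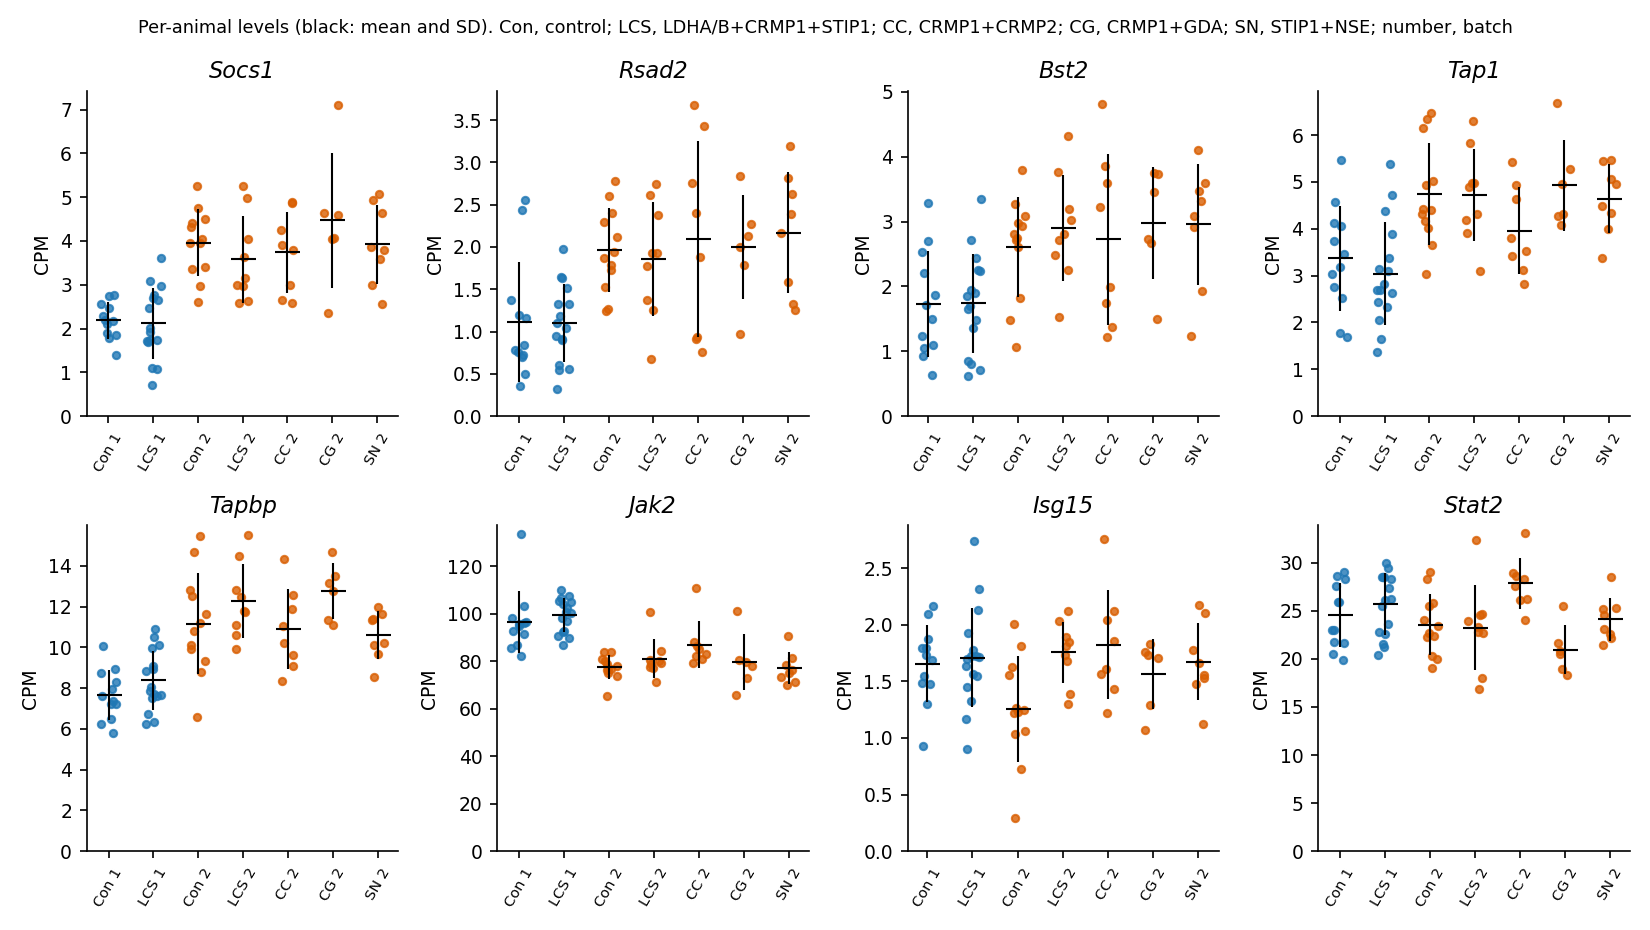
CPM of 8 members in each of the 71 animals by exposure group and batch (blue, batch 1; orange, batch 2), with the mean and SD of each group. In controls and in LDHA/B+CRMP1+STIP1 animals, Socs1, Rsad2, Bst2, Tap1 and Tapbp sit higher on average and Jak2 lower in batch 2, while Stat2 is highest on average after CRMP1+CRMP2.

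The 25 LDHA/B+CRMP1+STIP1 animals, which share no sample with the controls, gave a second view of the batches, added after the control values were seen. In them 12 of 26 members passed (46.2%, against 41.3% of all genes), 9 higher in batch 2 and 3 lower, where 21% of all genes were higher and 20.2% lower. Socs1 went from 2.12 ± 0.81 CPM (SD, n = 16) to 3.58 ± 0.99 (n = 9), a log2 fold change of 0.72 (SE 0.21, edgeR adjusted p = 0.0112). Tapbp went from 8.38 ± 1.44 to 12.3 ± 1.80 CPM (0.51, SE 0.10, edgeR adjusted p = 0.00023), and Tap1 and Tap2 each had a log2 fold change of 0.63 (edgeR adjusted p = 0.00797 and 0.0186). Psmb9 passed here (0.54, SE 0.22, adjusted p = 0.0606), so that 4 of 4 antigen processing genes tested were higher.

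Rsad2 (0.73, SE 0.25), Bst2 (0.70, SE 0.24) and Ifit2 (0.61, SE 0.21) were higher as well, with edgeR adjusted p of 0.0285, 0.0241 and 0.0256. Irf7 had the largest fold change of those tested, 1.07 (SE 0.33, edgeR adjusted p = 0.0132), from 0.558 ± 0.320 to 1.19 ± 0.491 CPM. Most of its animals at 1 CPM or more were in batch 2. It thus met the filter of 1 CPM in 8 animals through the group where it was high, which favours such a call. Irf7 was not tested in the controls because too few of them reached 1 CPM. Its control medians were 0.766 CPM in batch 1 and 0.891 in batch 2. Jak2 went from 99.4 ± 7.15 to 81.1 ± 8.18 CPM (-0.33, SE 0.05, edgeR adjusted p = 1.55e-05), Jak1 from 210 ± 15.1 to 180 ± 8.78 (-0.26, SE 0.05, adjusted p = 0.000124) and Stat2 by -0.18 (SE 0.08, adjusted p = 0.0901).

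Of 25 members tested in both groups, 12 were called in the controls and 11 in the LDHA/B+CRMP1+STIP1 animals. The 9 called in both were Socs1, Rsad2, Bst2, Ifit2, Tap1, Tap2, Tapbp, Jak1 and Jak2, all with the same sign, which is 75% of the control calls and 81.8% of the others. Socs3, Ifngr2 and Ifngr1 passed only in the controls, with log2 fold changes of 0.42, 0.11 and -0.04 in the exposed animals. The direct test of the difference between the batches in the LDHA/B+CRMP1+STIP1 effect, given above, is the same contrast. It did not call these genes. Estimates of 24 of the 25 had the same sign. Over the 11968 genes tested in both groups, 3646 were called in both, 73.4% of the control calls and 73.7% of the others, 99.9% of them with the same sign, and 84.1% of all estimates had the same sign.

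**Figure D4:**
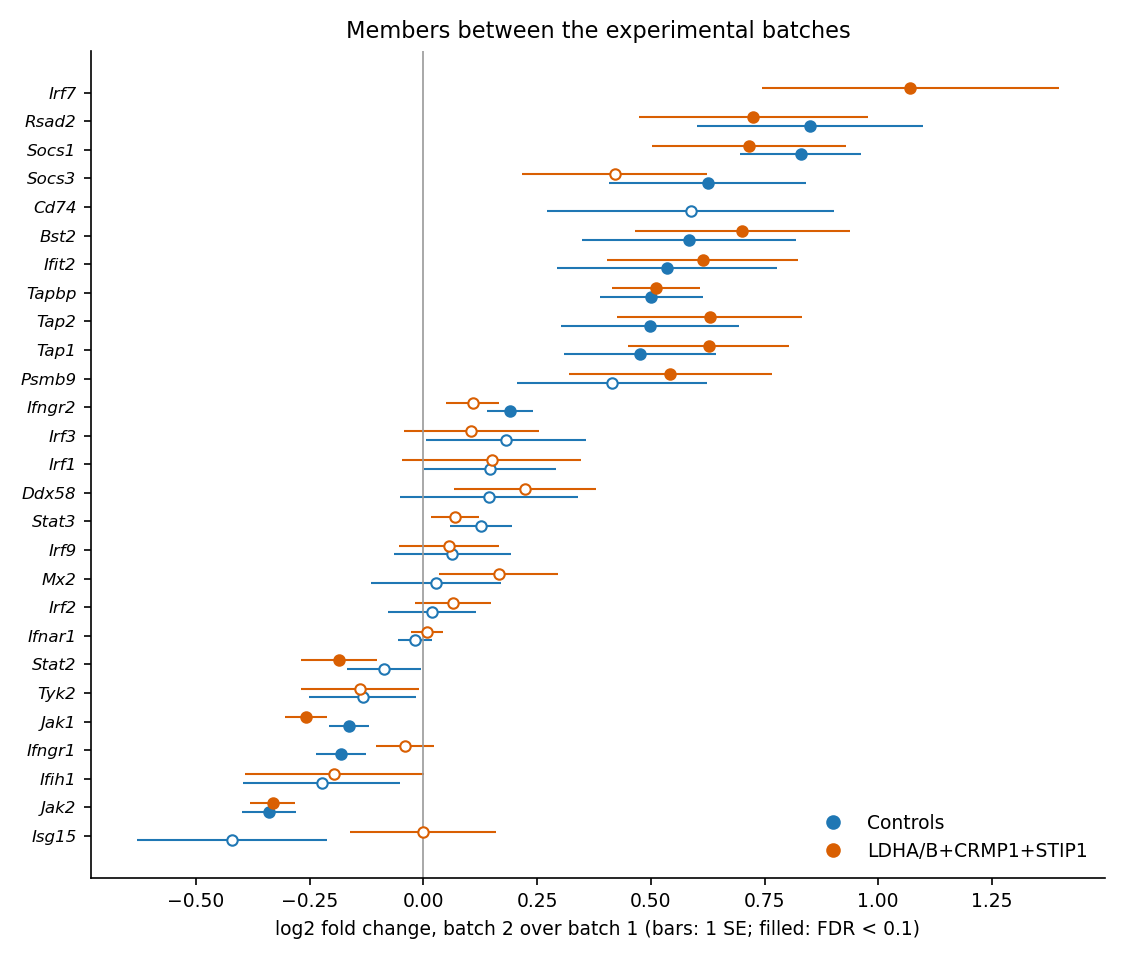
Log2 fold change of batch 2 over batch 1 with its SE for each member tested, in controls (blue) and in LDHA/B+CRMP1+STIP1 animals (orange); filled points passed FDR < 0.1. Both colours lie right of 0 for Socs1, Rsad2, Bst2, Ifit2 and the Tap genes and left of 0 for Jak1 and Jak2.

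With littermates merged into 1 sum per litter, fewer members passed. The controls (3 against 4 litters) kept Socs1, Tapbp, Ifngr2 and Jak2, 4 of 28 members, where 15.6% of all genes passed. The LDHA/B+CRMP1+STIP1 litters (4 against 5) kept Socs1, Tap1, Tap2, Tapbp, Bst2, Irf7, Jak1 and Jak2, 8 of 27, where 18.2% of all genes passed. Without litter RNA4, the count in the controls was 7 of 26 (32.6% of all genes). With litter as a random effect 6 members passed in the controls and 7 in the LDHA/B+CRMP1+STIP1 animals, against 22.1% and 28.2% of all genes.

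Other genes of the pathway had batch differences as well. In the controls 15 of 75 tested were higher in batch 2 and 6 lower, and in the LDHA/B+CRMP1+STIP1 animals 25 of 74 were higher and 10 lower. These are 28% and 47.3% of those tested, against 41.6% and 41.3% of all genes. With litter as a random effect 8 of the 75 were higher and 0 lower in the controls. In the exposed animals 16 of the 74 were higher and 5 lower. The shares over all genes were 22.1% and 28.2%. With counts summed per litter 5 were higher and 1 lower in the controls, and 11 and 1 in the exposed animals, where 15.6% and 18.2% of all genes passed. Rfxap, a subunit of the RFX complex that binds MHC class II promoters, had log2 fold changes of 0.34 in the controls and 0.35 in the exposed animals (edgeR adjusted p = 0.000114 and 5.69e-05). RT1-S3, a non-classical MHC class I gene, had 0.69 and 0.73 (edgeR adjusted p = 0.00509 and 2.63e-05). Psme1, an activator subunit of the proteasome, was called at 0.27 and 0.25 (edgeR adjusted p = 0.000631 and 0.00425), and Dtx3l, a ubiquitin ligase, at 0.64 and 0.61 (edgeR adjusted p = 0.00148 and 0.00411).

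Tissue markers differed between the batches in the same animals. All 6 choroid plexus markers were higher in batch 2 controls (median log2 fold change 3.74), with summed levels of 2.52 to 107 CPM in batch 1 and 133 to 2861 in batch 2. All 3 thalamus markers were higher (median 2.78, sums of 9.32 to 37.7 against 152 to 623 CPM), as were all 3 ependyma markers, and 4 of 5 cortical and hippocampal neuron markers were lower and 1 higher (sums of 1027 to 1668 against 599 to 934 CPM). In the other lists 2 of 5 erythroid, 2 of 3 hypothalamus and 1 of 1 pineal markers tested were higher, brain endothelium (8 tested) and astrocyte (5 tested) each had 1 higher and 1 lower, and 0 passed among border macrophage, meningeal fibroblast, lymphocyte and oligodendrocyte lineage markers. Of 12 microglia markers, which were all detected at a median of 1 CPM or more, 0 were higher and 1 was lower, with sums of 58.6 to 116 CPM in batch 1 controls and 49.4 to 125 in batch 2. In the LDHA/B+CRMP1+STIP1 animals all 6 choroid plexus and all 3 thalamus markers were higher in batch 2 too, with choroid plexus sums of 1.34 to 556 CPM in batch 1 and 373 to 2177 in batch 2. Thalamus sums of these animals were 9.03 to 35.9 CPM in batch 1 and 16.8 to 560 in batch 2. Those of batch 2 litter 9_4 (16.8 and 31.6) lay inside the batch 1 range. There 5 of 5 erythroid markers were higher (sums of 258 to 1094 against 648 to 1833 CPM), 3 of 5 astrocyte markers were higher and 2 lower, 4 of 5 cortical and hippocampal neuron markers were lower and 1 higher, and 0 of 12 microglia markers passed. Batch, the tissue held in the slice and handling cannot be told apart in this design, and the part of the marker tissues in the members' differences was not tested.

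Among members higher in batch 2 controls, promoters are shown only for those that carry the motif that Irf9 and other IRF factors bind. Higher members without a match are not printed, and no promoter sequence was at hand for Ifit2. Sequences are from RefSeq (build GRCr8, so positions differ from the rn7 coordinates above), read 5′ to 3′ on the gene's strand. In a window of 250 bases before and 50 after the start, the letters GAAA, then 2 bases of any kind, then GAAA were searched on both strands, and capitals mark its matches.
Socs1, chr10:5389445-5389504, plus strand: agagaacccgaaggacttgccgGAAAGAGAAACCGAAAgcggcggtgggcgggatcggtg
Bst2, chr16:18255061-18255120, minus strand: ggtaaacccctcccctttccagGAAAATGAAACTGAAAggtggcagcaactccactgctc
Tap1, chr20:4668630-4668689, minus strand: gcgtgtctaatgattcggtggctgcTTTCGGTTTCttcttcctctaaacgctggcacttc
Tap2, chr20:4652303-4652362, minus strand: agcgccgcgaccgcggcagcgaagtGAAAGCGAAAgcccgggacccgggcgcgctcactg
Tapbp, chr20:4967881-4967910, minus strand: tttgaggGAAAATGAAAGTGAAAggaaaca
Rsad2, chr6:48788248-48788277, minus strand: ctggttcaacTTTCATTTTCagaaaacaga

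Socs1, Bst2 and Tapbp each held 2 overlapping matches, which makes a run of 3 GAAA units 6 bases apart, and Tap1 and Rsad2 held the motif on the opposite strand. Promoter sequences were at hand for 25 of the 34 members, and 10 of these held the motif, against 3.92% of 33469 rat promoters of the same length. Among members higher in batch 2 controls 6 of 8 held it, among those lower 0 of 2, and among those tested and not called 1 of 9, Ifih1. Socs3 and Ifngr2 were the 2 higher members without a match. The other holders were Irf7, Ifit3 and Psmb8, 3 of 6 not tested in the controls. By role, the motif was in 4 of 5 antigen processing promoters, 3 of 5 effectors, 1 of 1 sensors and 1 of 2 feedback inhibitors. It was in 1 of 4 IRF factors and in no promoter of the receptors, kinases, STAT factors or MHC class II. The members were chosen as interferon genes, so a share above that of all promoters is no independent result. Whether the split by batch call goes beyond role was not tested. The motif bound by STAT dimers, TTC, then 3 bases of any kind, then GAA, was found in 6 of the 25 and in 8.87% of all promoters. Its holders were Ifnar2, Irf1, Irf9, Bst2, Psmb8 and Socs1. A match describes the letters only and says nothing of binding.

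Littermates resembled each other in part of the program. A test for any difference among litters of the same pattern and batch called 10 of 29 members in edgeR (34.5%, against 56.8% of all genes), and DESeq2 called 12, against 64.6%. The 10 were Irf3, Tyk2, Stat3, Irf9, Stat2, Jak1, Ifngr2, Ifngr1, Ifnar1 and Mx2, which are receptor, kinase and factor genes apart from Mx2. They were also members with high counts, each with a median of 11.2 CPM or more. Apart from Jak2 (84.1 CPM), every other member had a median of 10.1 CPM or less. Role and level were not tested apart.

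Irf3 had the smallest p of this test (edgeR adjusted p = 4.3e-05). Among controls of batch 2 its litter means were 20.6 CPM in litter 9_5, 38.6 in 9_15, 42.3 in 9_25 and 49.9 in 9_10, and among LDHA/B+CRMP1+STIP1 animals of batch 2 they ran from 24.4 in litter 9_4 to 54.0 in 9_9. Over all 27 litters the highest mean was 2.63 times the lowest, while within a litter the highest animal was a median of 1.27 times the lowest. The range of the batch 2 controls, 19.97 to 60.7 CPM, covered almost that of all animals. Tyk2 means ran from 11.9 CPM in litter 9_5 to 21.2 in 9_10 among batch 2 controls, and from 18.96 in litter 9_16 to 28.7 in 9_6 after CRMP1+CRMP2 (edgeR adjusted p = 0.000251). Irf9 means ran from 8.69 CPM in litter 9_5 to 14.5 in 9_10 among the same controls (edgeR adjusted p = 0.000721). Litter 9_5, with 2 animals, had the lowest mean of all 27 litters for these 3 genes. Stat3, which many cytokines use, had means of 41.3 CPM in litter RNA4 to 56.3 in IgG2 among batch 1 controls and 49.0 in litter 9_10 to 62.6 in 9_25 among those of batch 2 (edgeR adjusted p = 0.000718). Among the other genes of the pathway 35 of 80 differed among litters (43.8%, against 56.8% of all genes).

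**Figure D5:**
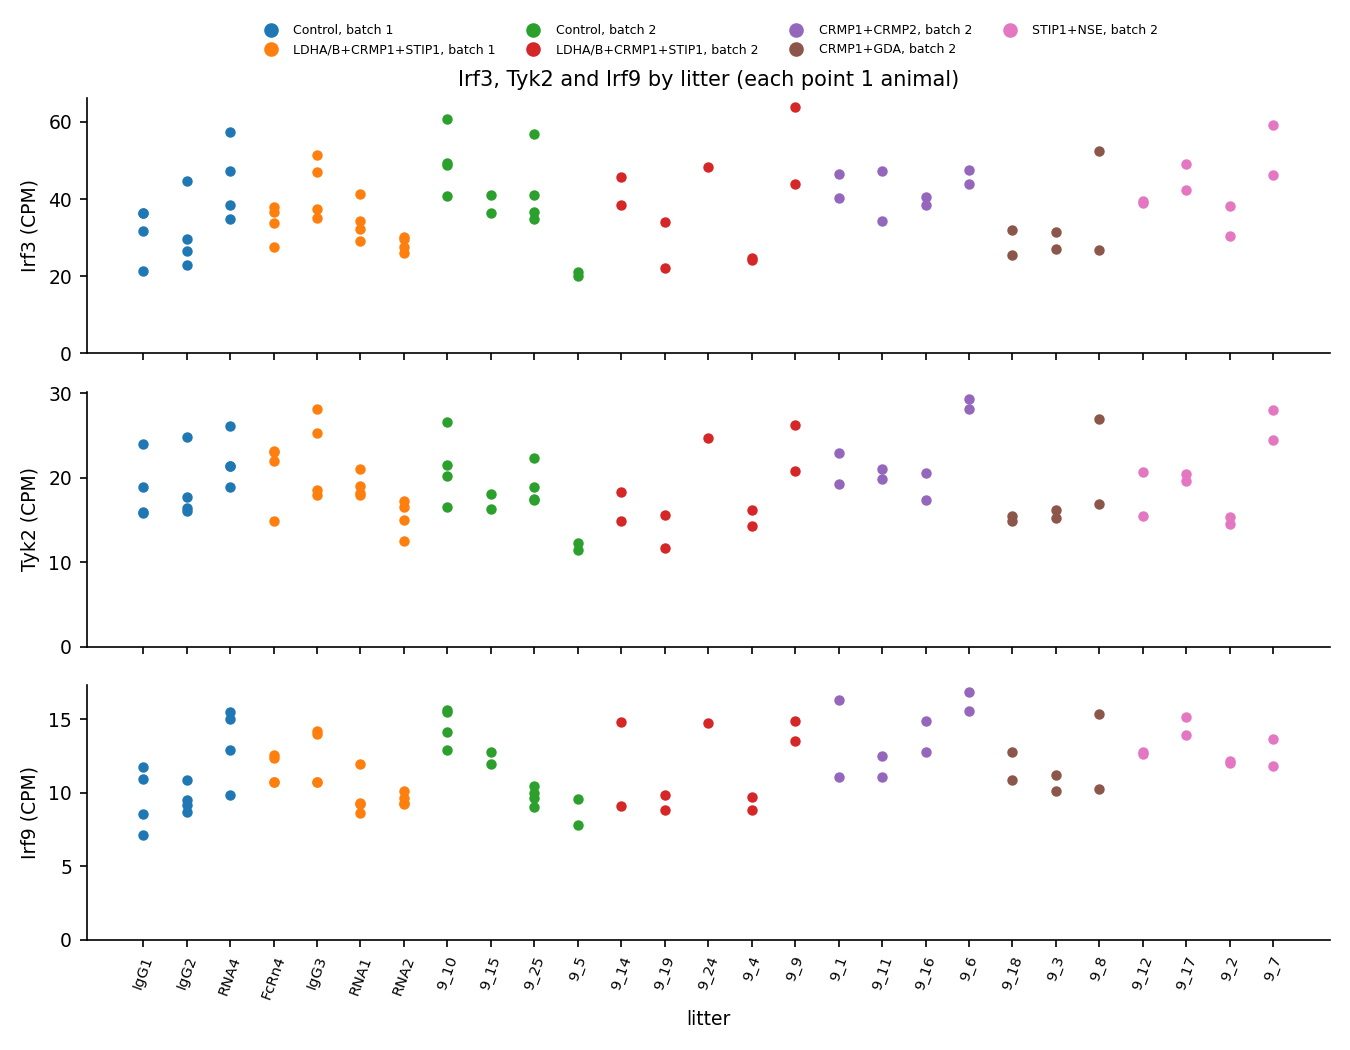
CPM of Irf3, Tyk2 and Irf9 in each animal, arranged by litter. Animals of litter 9_5 lie at the low end in all 3 panels, with means of 20.6, 11.9 and 8.69, and those of litter 9_6 have the highest means for Tyk2 and Irf9.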

How the data were processed

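Counts per gene were deposited for 71 PND2 samples. The authors aligned paired reads to rn7 with STAR 2.5.4b and counted them with featureCounts, whose options for strand and multiple mapping are not given in the sources used here. The deposited table also holds the exon length of each gene, used here for RPKM. Among counts of 1 to 9, 74.5% were even, so halved counts were tried. Exposure, dam and sex come from the labels, and batch from the series of the sample title. No library pair differed by less than sampling noise.

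Members and lists were chosen with earlier results of these data known. Fits used edgeR 4.0.16 (TMM, robust quasi-likelihood) in R 4.3.3 over all genes with at least 1 CPM in 8 animals (all MARA, sex, litter and batch contrasts) or more than 1 CPM in 2 (others), with Benjamini-Hochberg FDR < 0.1. Exposure contrasts over both batches carried 1 surrogate variable (sva 3.50.0), the others sex (the litter and sex tests also pattern and batch), and alternatives included limma 3.58.1 (litter as a random effect) and DESeq2 1.42.0. Pups are the replicates and littermates share a dam, so p-values also rest on spread within litters. Fold changes are given for called members and for the 3 smallest p per exposure contrast, and for up to 4 other pathway genes called. Scripts were tested on simulated data. Marker lists cover 14 tissues and cell types, and those not named in the text are given by counts only. Promoter sequences are RefSeq's, build GRCr8.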

Additional observations from a re-analysis of the deposited data

Results flagged for a closer look

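In 12 of 132 groups of 6 to 9 animals checked, the highest animal stood further from the rest than Dixon's 95% critical value. Chance alone flags some groups, and since the same animals recur for every member, the groups are not independent. How many groups chance would flag was not estimated. Several of these values came from a few animals. One male of STIP1+NSE litter 9_12 had the highest Ifit2 of its group (4.06 CPM, others 1.74 to 2.64), Oasl (1.59, others 0.135 to 0.739) and Usp18 (1.70, others 0.296 to 0.886), 3 interferon-induced effectors. One male of CRMP1+CRMP2 litter 9_6 had the highest Ddx58 (5.43, others 2.91 to 3.91) and Ifit2 (4.87, others 1.45 to 2.65), and the other male of that litter had the highest Jak2 (110.91, others 79.4 to 88.2). One male of CRMP1+GDA litter 9_8 had the highest Irf3 (52.4, others 25.5 to 31.996) and Tyk2 (26.9, others 14.9 to 16.9). Among LDHA/B+CRMP1+STIP1 animals of batch 2, a female of litter 9_14 had the highest Ifngr1 (60.8, others 38.1 to 46.5) and Oasl (1.36, others 0.176 to 0.723), and the female of litter 9_24 the highest Jak2 (100.8, others 71.2 to 84.4) and Stat2 (32.3, others 16.9 to 24.7). The cause of these values was not tested.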

How the results depend on the processing

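No paired analysis was possible because replicate numbers only follow the order of the samples and each litter had 1 exposure. The LDHA/B+CRMP1+STIP1 batch comparison, the litter sums and left-out litters of both batch comparisons, and the left-out control litters for CRMP1+CRMP2 were chosen after seeing the data. The count of 0 members held under every alternative run for all MARA animals, LDHA/B+CRMP1+STIP1 (both batches or within each), CRMP1+GDA, STIP1+NSE, the difference between batches in effect, the differences among patterns, and sex. It was also 0 to 0 with each exposed litter of LDHA/B+CRMP1+STIP1, CRMP1+GDA or STIP1+NSE left out.

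After CRMP1+CRMP2, 1 member was called, but 0 with batch and sex as covariates, 0 in batch 2 alone, 0 with counts summed per litter, 0 with no filter, 0 with litter as a random effect, 5 with PC1 and PC2, and 0 to 2 with 1 litter left out (2 without 9_10). In the batch comparison of controls 12 were called, but 4 with litter sums, 6 with litter as a random effect, and 7 to 14 with 1 litter left out. For LDHA/B+CRMP1+STIP1 animals the 12 calls became 7 with litter as a random effect and 8 to 13 with 1 litter left out. Litter sums have fewer samples by construction, and the cause of the other changes was not tested.

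Over 64 results for named genes and 660 alternatives, 589 kept direction and side of the threshold, 67 lost the call, 3 gained it and 1 reversed. The reversal was Jak2 after CRMP1+GDA, 0.09 on the log2 scale with all litters and -0.055 without litter 9_8, with a range of -0.055 to 0.15 over left-out litters.

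Over all genes, the 1669 calls after CRMP1+CRMP2 became 491 with batch and sex, 127 in batch 2 alone, 0 with litter sums, 91 with litter as a random effect, 50 without litter 9_6, 984 without 9_11, 1001 without IgG2, 2972 without 9_10 and 3015 without 9_16. The 5033 calls between batches in controls became 1895 with litter sums and 2669 with the random effect, and the 4966 in LDHA/B+CRMP1+STIP1 animals became 2222 with litter sums. Elsewhere counts over all genes ran from 0 to 12 for all MARA animals (2 as reported), 0 to 139 for LDHA/B+CRMP1+STIP1 (3, with 139 without litter 9_9), 0 to 5 for CRMP1+GDA (1), 0 to 14 for STIP1+NSE (7), 0 to 7 within batch 1 (2), 0 to 16 for the difference between batches (14) and 0 to 2 among patterns (0). With 24.9 to 36.2 counts behind 1 CPM, depth limited what could be seen for Ifit3, Ciita, Oasl, Usp18 and Mx1.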
